A study of Mus musculus with 36 samples.

Results

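The genes described here are 48 protein-coding mouse genes of the cell cycle and of DNA replication, chosen by name for their known roles and found through the Ensembl identifiers that carry those symbols. They are 48 of the 53715 genes counted, of which 31610 had a read in any library. The choice was made with earlier results of these data known. Each of the 36 libraries holds messenger RNA of whole kidney, and the 4 groups have 9 libraries each. The series sets loss of the circadian gene Bmal1 in the renal tubule beside diabetes, alone and together. The STZ-cKOt and PBS-cKOt mice were Bmal1 lox/lox animals with the Pax8-rtTA and LC1 transgenes. In these, the Pax8 promoter, active in the tubule, drives a doxycycline-dependent activator that switches on Cre recombinase. The STZ-control and PBS-control mice were littermates with Bmal1 lox/lox alone. Mice of all 4 groups drank DOX (doxycycline, 2 mg/ml) for 2 weeks starting at 8 weeks of age. The STZ groups then received streptozotocin, a toxin of the insulin-producing beta cells, at 50 mg/kg by intraperitoneal injection on 5 days, beginning 1 week after DOX had ended, and the PBS groups received phosphate-buffered saline. Every kidney was taken 8 weeks after the final injection and at a single time of day, ZT9 (9 hours after lights on), so no rhythm was measured. A whole kidney holds many cell types in which the Pax8 promoter is silent, and in bulk RNA fewer cells of a type and less RNA per cell cannot be told apart.

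Cell division is driven by cyclins and the kinases they activate. In G1, D-type cyclins start to inactivate the retinoblastoma proteins, which frees E2F factors to switch on cyclin E and the genes that license and copy DNA. Later, factors such as FoxM1 and the MuvB complexes switch on the genes of G2 and mitosis, and Wee1 holds Cdk1 inactive until DNA is copied. In adult kidney few tubule cells divide, and they are known to enter the cycle again after injury. Wee1 is known as a target of the circadian clock in mouse liver.

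Reads counted to genes numbered 16.9 to 22.3 M in a library, with a median of 20.1 M. Markers of proximal tubule, 12 of 12 of them tested, summed to between 22829 and 58005 CPM over all libraries, where CPM is the count scaled to the normalised library size. Counts of the targeted gene Arntl (Bmal1) were higher in cKOt kidneys. They ran from 13.0 to 17.1 CPM in STZ-cKOt and from 12.9 to 17.4 CPM in PBS-cKOt, against 1.09 to 2.39 CPM in PBS-control and 1.17 to 2.63 CPM in 8 of the STZ-control libraries. A whole-gene count includes exons outside the floxed part, and the deletion cannot be read from it. In the library labelled STZ-control 2, Arntl stood at 13.4 CPM and the clock target Ciart at 1.95 CPM, where the other 8 STZ-control libraries had 18.2 to 32.5 CPM of Ciart. That library and 4 others (STZ-control 7 and 8, PBS-cKOt 1 and 3), which stood apart on the second principal component of all genes, were kept, and results that turn on them are given with and without them.

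All 48 genes had reads in 36 of 36 libraries and passed the filter on low counts. Per kilobase of exon, mean levels over all libraries were highest for the cyclin D1 gene Ccnd1 at 37.4 CPM per kb, the replication clamp gene Pcna at 11.3, the p27 gene Cdkn1b at 10.8 and the cyclin D3 gene Ccnd3 at 8.83. The lowest mean levels per kilobase were those of Cenpf at 0.124, Cdc6 at 0.153 and Bub1 at 0.153 CPM per kb. The lowest ones thus include the licensing gene Cdc6 beside genes of mitosis. Spread within groups was smallest for Pcna, with a mean coefficient of variation of 7.45%, and wide for rare messages such as Bub1 (37.7%) and Melk (42.7%), which had between 3 and 36 reads and between 2 and 35 reads per library. It was widest for Mcm6, at 55.6%, although Mcm6 averaged 14.3 CPM.

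**Figure D1:**
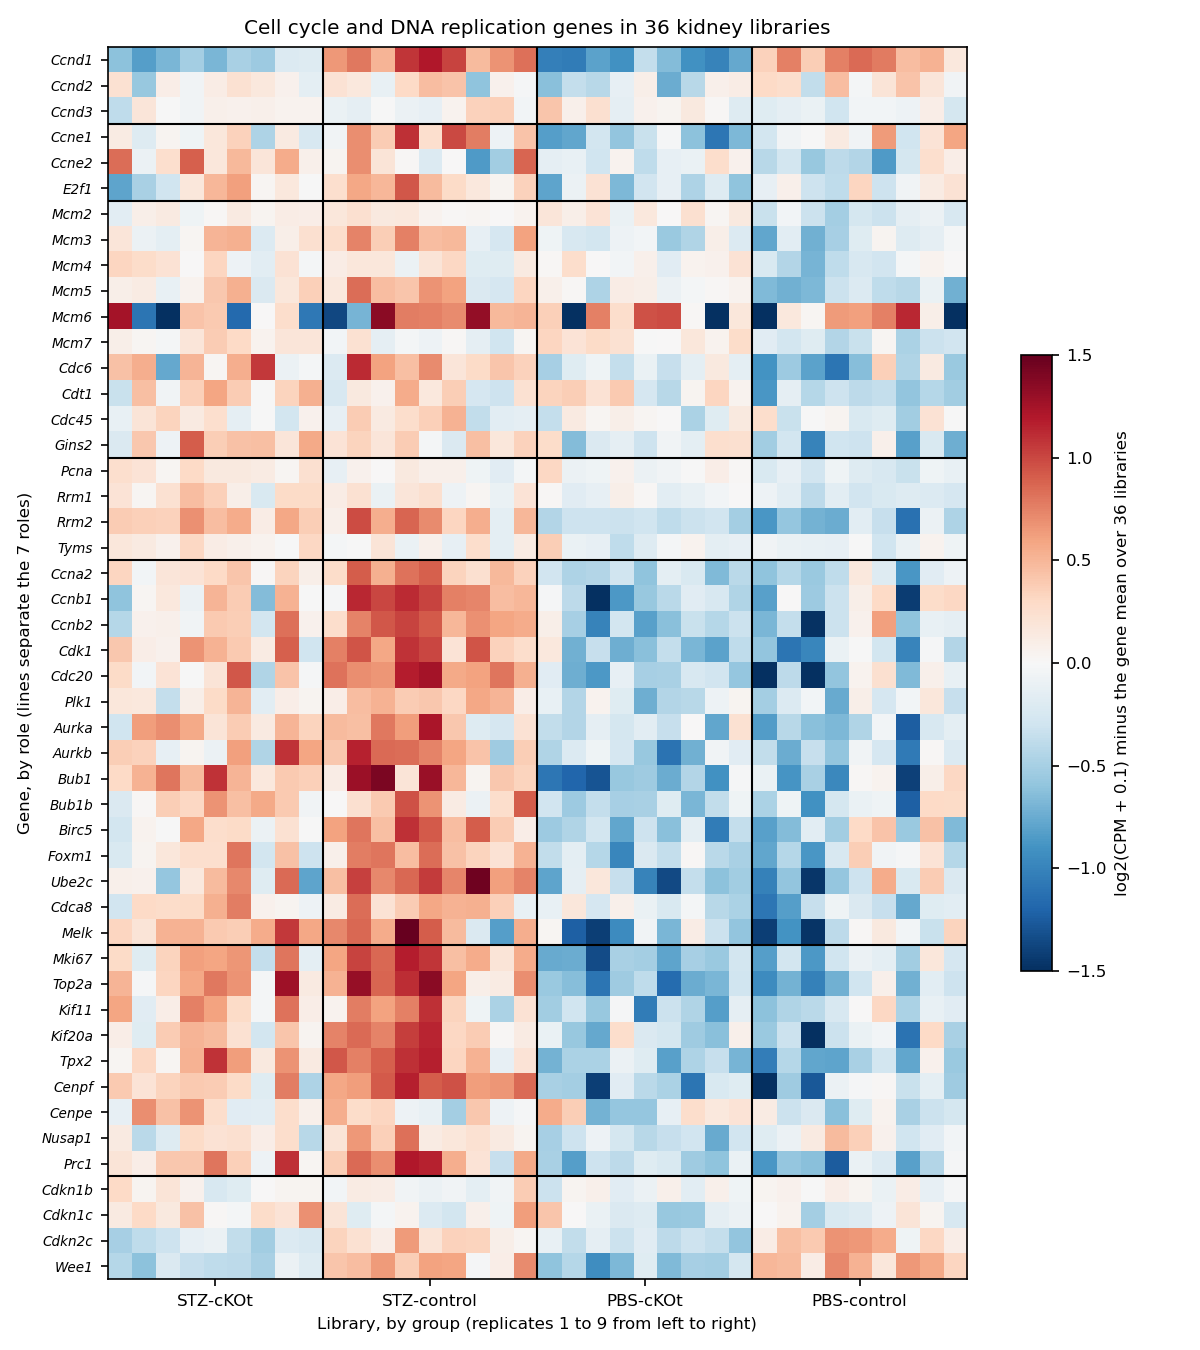
Level of each of the 48 genes (vertical axis, by role) in each of the 36 libraries (horizontal axis, by group), as log2(CPM + 0.1) minus the gene's mean over all libraries; red is above the mean and blue below. The G2/M and spindle genes are mostly red in STZ libraries and mostly blue in PBS libraries, while Ccnd1, Cdkn2c and Wee1 are blue in both cKOt groups and red in both control groups, apart from PBS-control 7 for Cdkn2c and STZ-control 7 for Wee1, which lie just below the mean.

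Streptozotocin was followed by higher levels of most of the 48 genes in control mice. At an adjusted p under 0.05 (edgeR's quasi-likelihood test, Benjamini-Hochberg over 15637 genes; called, below), 34 of 48 were higher in STZ-control than in PBS-control and 0 were lower. Over all genes tested, 12.3% were called in that comparison in either direction, 6.34% as higher and 5.93% as lower. The median log2 fold change of the 48 genes was 0.68, and that of all genes tested 0.00. The value ranges of the 2 groups did not overlap for 7 of the 48, against 1.22% of all genes tested. At an unadjusted p under 0.05, 0 of 48 were lower, where 13.4% of all genes were, and DESeq2 and limma voom also called 0 lower.

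In cKOt mice, 25 of 48 were higher in STZ-cKOt than in PBS-cKOt and 0 were lower, beside 11.6% of all genes called in either direction, 6.00% as higher and 5.63% as lower. At an unadjusted p under 0.05, 36 were higher and 0 lower, where 12.8% of all genes were higher and 12.3% lower, and DESeq2 and limma voom called 27 and 32 higher and 0 lower. Their median log2 fold change was 0.47, with 7 of 48 having ranges that did not overlap, against 0.876% of all genes. The genotype comparisons were more mixed. Between STZ-cKOt and STZ-control, 14 of 48 were called, 2 higher and 12 lower, where 19.6% of all genes were called, 9.52% higher and 10.1% lower. Between PBS-cKOt and PBS-control, 12 of 48 (25.0%) were called, 6 higher and 6 lower, which is near the 23.4% of all genes called in that comparison (10.9% higher and 12.5% lower). In each genotype comparison 3 of the 48, the same ones (Ccnd1, Cdkn2c and Wee1), had ranges that did not overlap, against 3.50% of all genes in STZ mice and 5.12% in PBS mice. Over the 4 comparisons and the interaction, 41 of the 48 genes were called at least once, as were 40.7% of all genes tested. The 7 that were never called were Ccnd3, Ccne2, Mcm6, Cdc45, Tyms, Cenpe and Cdkn1b.

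**Figure D2:**
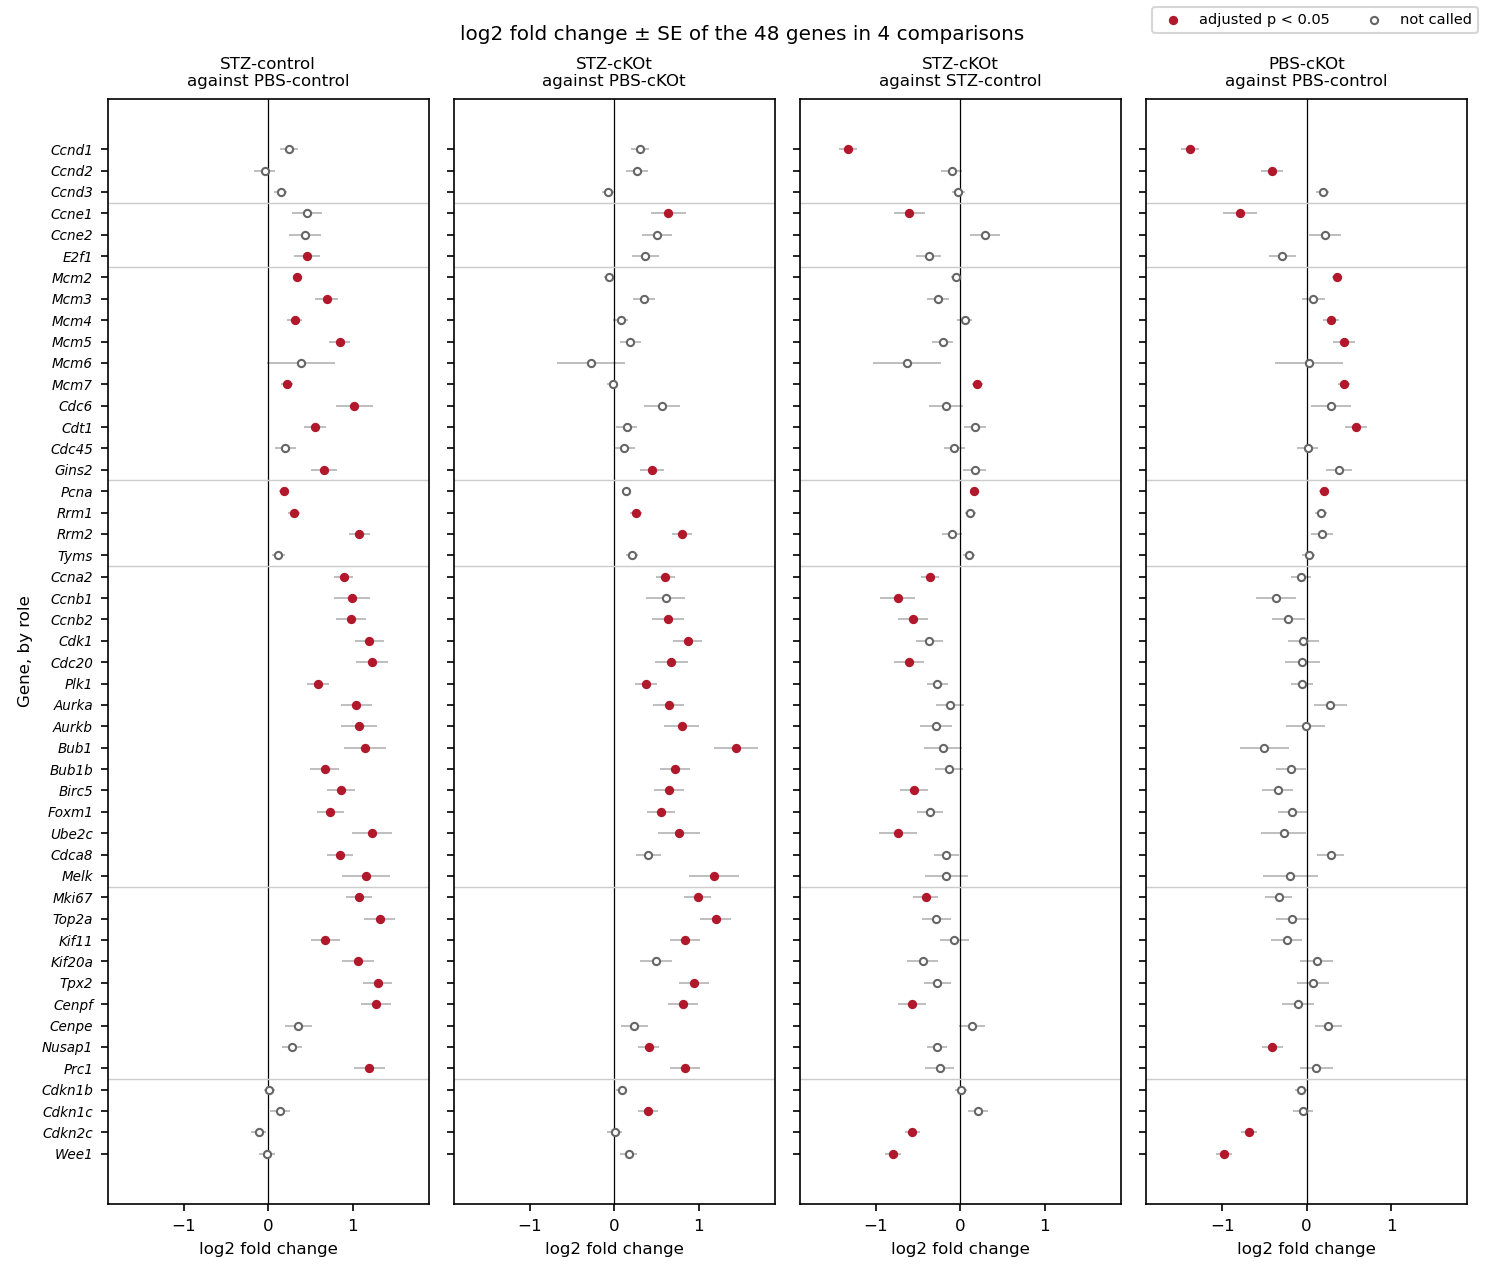
log2 fold change with its standard error (horizontal axis) for the 48 genes (vertical axis, by role) in 4 comparisons, with filled red points for an edgeR adjusted p under 0.05 and open points otherwise. In the STZ comparison of control mice 34 points are filled and all of them lie right of 0; in the genotype comparisons the filled points of Ccnd1, Ccne1, Cdkn2c and Wee1 lie left of 0 in both.

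Of the 3 genes of D-type cyclins, which carry growth signals into G1, Ccnd1 was called lower in cKOt kidneys under both treatments. Ccnd1 (ENSMUSG00000070348, chromosome 7, 144929931 to 144939925, GRCm38, minus strand) had a lowest, median and highest level of 88.1, 107 and 137 CPM in STZ-cKOt, against 216, 270 and 358 CPM in STZ-control. In PBS-cKOt it had 75.1, 83.2 and 122 CPM, against 174, 223 and 281 CPM in PBS-control. Every cKOt library lay below every control library of the same treatment. Ccnd1 was 2.52-fold lower in STZ-cKOt than in STZ-control (log2 −1.33 ± 0.11 SE, adjusted p = 1.21e-12) and 2.61-fold lower in PBS-cKOt than in PBS-control (−1.39 ± 0.11, adjusted p = 4.00e-13). It was not called for STZ in either genotype, at log2 0.30 ± 0.11 in cKOt mice (adjusted p = 0.0568) and 0.25 ± 0.10 in control mice (adjusted p = 0.113). The cyclin D2 gene Ccnd2 fell in PBS-cKOt to 14.2 ± 3.13 CPM, against 18.9 ± 3.25 CPM in PBS-control (SD, n = 9 each; log2 −0.41 ± 0.13, adjusted p = 0.0159), and that call was lost without the 4 libraries. In STZ mice Ccnd2 had 17.1 ± 2.66 CPM in STZ-cKOt and 18.4 ± 3.78 CPM in STZ-control and was not called. Ccnd3 ranged from 59.1 to 87.4 CPM in STZ-cKOt, from 70.0 to 98.2 CPM in STZ-control, from 67.3 to 102 CPM in PBS-cKOt and from 62.4 to 82.8 CPM in PBS-control. Those 4 ranges overlapped, and Ccnd3 was called in no comparison.

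Among the regulators of entry into S phase, Ccne1, which encodes cyclin E1, had a lowest, median and highest level of 0.453, 0.686 and 0.864 CPM in STZ-cKOt, against 0.625, 0.925 and 1.53 CPM in STZ-control. In PBS-cKOt these were 0.259, 0.397 and 0.649 CPM, against 0.517, 0.656 and 1.09 CPM in PBS-control. The cKOt groups lay lower, with overlap, and Ccne1 was called lower in STZ-cKOt (log2 −0.61 ± 0.18, adjusted p = 0.0144) and in PBS-cKOt (−0.79 ± 0.20, adjusted p = 0.00367). It was also higher in STZ-cKOt than in PBS-cKOt (0.64 ± 0.20, adjusted p = 0.0327), a call that DESeq2 and a fit with no filter did not make. These levels rest on 5 to 32 reads per library. The transcription factor gene E2f1 was 1.38-fold higher in STZ-control, at 4.32 ± 0.869 CPM, against 3.14 ± 0.564 CPM in PBS-control (SD, n = 9 each; adjusted p = 0.0427). E2f1 lost that call with no filter on low counts and also without the library labelled STZ-control 2. The cyclin E2 gene Ccne2 had 2.37 ± 0.602 CPM in STZ-cKOt, 1.91 ± 0.760 CPM in STZ-control, 1.66 ± 0.240 CPM in PBS-cKOt and 1.43 ± 0.367 CPM in PBS-control, with no call.

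Among the 10 genes of origin licensing and of the replicative helicase, Mcm2 to Mcm7 encode the helicase ring, Cdc6 and Cdt1 load it onto origins, and Cdc45 and Gins2 activate it. Of the 10, 8 rose in STZ-control against PBS-control (median log2 0.47) and 1, Gins2, rose in STZ-cKOt against PBS-cKOt (median 0.13). Of all genes tested, 6.34% and 6.00% were called higher in those comparisons. The interaction, the STZ effect in cKOt mice minus that in control mice, called 1 of the 10, Mcm2, a call lost under 4 of 8 other settings. In the genotype comparison of PBS mice 5 of the 10 were higher in PBS-cKOt and 0 lower, where 10.9% of all genes were called higher. In STZ mice 1, Mcm7, was higher in STZ-cKOt and 0 lower, where 9.52% of all genes were called higher. At an unadjusted p under 0.05 the lower counts were 0 in PBS mice and 1 in STZ mice (18.4% and 16.1% over all genes), with 0 in both by DESeq2 and 0 and 1 by limma voom. The promoter of Mcm5 is shown because this role had the largest share of promoters with an E2F element.

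The window runs from 250 bases before the gene start to 50 after it (RefSeq, GRCm38.p6, chr8:75109259-75109558, plus strand), with matches in capitals. The E2F element was searched as TTCCCGC, with the variant letters TTGGCGC as a second form and the letters TTCGCGC as a further form. The other capitals are the CCAAT box. Every motif was searched on both strands, so a match may read as the reverse complement of these letters. In the longest run of capitals 2 E2F matches overlap.
Mcm5: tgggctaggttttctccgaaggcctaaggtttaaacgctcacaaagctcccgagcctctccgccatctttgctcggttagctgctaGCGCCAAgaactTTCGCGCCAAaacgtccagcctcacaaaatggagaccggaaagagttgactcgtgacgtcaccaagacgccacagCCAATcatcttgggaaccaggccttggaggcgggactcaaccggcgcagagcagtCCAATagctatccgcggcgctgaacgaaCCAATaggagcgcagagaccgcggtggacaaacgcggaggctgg

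An E2F match stood in 7 of 9 promoters of this role (77.8%), against 8.07% of the 32851 promoter windows in the table. Mcm7 has a pair of windows, and by gene the count was 6 of 8. In Mcm5 the first bases of its 3 matches lie 164, 152 and 149 bases before the RefSeq start. The Ensembl start of Mcm5, given below, lies past the end of this window. A match describes letters only, and no binding was measured. The table held 40 windows for 36 of the 48 genes, and none was used for Kif20a, Aurkb, Tpx2, Gins2, Ccna2, Foxm1, Mcm4, Wee1, Cdkn1c, Ccnd2, Ccnd1 and Ccne2.

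Mcm2 had a lowest, median and highest level of 11.3, 13.5 and 13.9 CPM in STZ-cKOt, 12.7, 13.1 and 14.9 CPM in STZ-control, 11.8, 14.0 and 14.98 CPM in PBS-cKOt and 8.84, 10.5 and 12.3 CPM in PBS-control. The first 3 groups overlapped, and PBS-control lay below STZ-control with no overlap. Mcm2 was higher in STZ-control than in PBS-control (log2 0.35 ± 0.06, adjusted p = 8.79e-05) and in PBS-cKOt than in PBS-control (0.36 ± 0.06, adjusted p = 1.19e-05). Between STZ-cKOt and PBS-cKOt its log2 fold change was −0.06 ± 0.06, with no call. For Mcm5 (ENSMUSG00000005410, chromosome 8, 75109569 to 75128439) these 3 levels were 3.87, 4.93 and 6.56 CPM in STZ-cKOt and 3.75, 6.03 and 8.15 CPM in STZ-control. They were 3.22, 4.57 and 4.85 CPM in PBS-cKOt and 2.68, 3.36 and 4.18 CPM in PBS-control. Mcm5 too was lowest in PBS-control, from which STZ-control differed by log2 0.85 ± 0.13 (adjusted p = 1.34e-05) and PBS-cKOt by 0.45 ± 0.13 (adjusted p = 0.00963). Mcm7 was higher in cKOt kidneys of both treatments. It had 17.0, 19.6 and 22.7 CPM in STZ-cKOt, against 14.1, 16.8 and 20.3 CPM in STZ-control, and 17.3, 20.0 and 21.6 CPM in PBS-cKOt, against 12.5, 14.1 and 17.7 CPM in PBS-control. The genotype difference of Mcm7 was log2 0.44 ± 0.07 in PBS mice (adjusted p = 3.22e-06) and 0.20 ± 0.07 in STZ mice (adjusted p = 0.0303). The call in STZ mice was lost with no filter and without the 4 libraries. Mcm7 overlaps the opposite-strand genes Cops6 and Ap4m1, which averaged 91.3 and 22.3 CPM.

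Of the other genes of this role, Cdc6 had the largest rise in STZ-control, 2.03-fold over PBS-control (log2 1.02 ± 0.22, adjusted p = 0.00176). In the same comparison Mcm3 rose by 0.69 ± 0.13, Gins2 by 0.66 ± 0.15, Cdt1 by 0.56 ± 0.13, Mcm4 by 0.32 ± 0.09 and Mcm7 by 0.23 ± 0.07. That of Mcm7 was not called without the library labelled STZ-control 2. In PBS-cKOt against PBS-control, Cdt1 rose by 0.58 ± 0.13 (adjusted p = 0.000883) and Mcm4 by 0.29 ± 0.09 (adjusted p = 0.0160). Cdc45 ranged from 1.65 to 3.52 CPM over all libraries and was called nowhere. Gins2, at 2.71 ± 0.650 CPM in STZ-cKOt and 1.99 ± 0.427 CPM in PBS-cKOt (SD, n = 9 each), was the gene of this role called for STZ in cKOt mice (0.45 ± 0.14, adjusted p = 0.0353). It lost that call with no filter and in the fit to those 2 groups alone. Mcm6 had wide ranges in every group, which overlapped. Its levels ran from 3.87 to 27.8 CPM in STZ-cKOt, from 4.46 to 29.9 CPM in STZ-control, from 3.15 to 23.02 CPM in PBS-cKOt and from 1.94 to 25.5 CPM in PBS-control.

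Of the 4 genes that act at the fork or supply nucleotides, 3 rose in STZ-control against PBS-control and 2 in STZ-cKOt against PBS-cKOt. Among all genes tested, 6.34% and 6.00% were called higher in these comparisons. Rrm2 (ENSMUSG00000020649, chromosome 12, 24708241 to 24714146), the cell-cycle-regulated subunit of ribonucleotide reductase, had 6.49, 7.80 and 9.67 CPM as its lowest, median and highest level in STZ-cKOt and 5.40, 8.76 and 11.9 CPM in STZ-control. In PBS-cKOt it had 4.16, 4.76 and 4.88 CPM and in PBS-control 2.69, 3.96 and 5.62 CPM. All STZ-cKOt libraries lay above all PBS-cKOt libraries, and the control groups overlapped slightly. Rrm2 rose 1.74-fold in STZ-cKOt against PBS-cKOt (adjusted p = 1.63e-05) and 2.11-fold in STZ-control against PBS-control (adjusted p = 8.62e-08). Its partner subunit gene Rrm1 rose by smaller amounts, to 19.8 ± 2.67 CPM in STZ-cKOt, against 16.6 ± 1.08 CPM in PBS-cKOt, and to 18.2 ± 1.81 CPM in STZ-control, against 14.8 ± 0.913 CPM in PBS-control. Pcna was higher in 3 comparisons by small amounts. It averaged 30.2 ± 2.02 CPM in STZ-cKOt, 26.9 ± 1.94 CPM in STZ-control, 27.4 ± 2.54 CPM in PBS-cKOt and 23.7 ± 1.57 CPM in PBS-control. The calls were STZ-control over PBS-control (log2 0.18 ± 0.05), STZ-cKOt over STZ-control (0.17 ± 0.05) and PBS-cKOt over PBS-control (0.21 ± 0.05). With no filter on low counts, Pcna was called in the last of these and not in the others. The thymidylate synthase gene Tyms, between 9.14 and 15.4 CPM over all libraries, was not called.

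The 15 genes of the G2/M kinases, cyclins and checkpoint were all higher in STZ-control than in PBS-control, with a median log2 fold change of 0.99. For STZ, 6.34% of all genes tested were called higher in control mice and 6.00% in cKOt mice. In cKOt mice 13 of the 15 were higher after STZ, with a median of 0.65, and Ccnb1 and Cdca8 were not called. Their summed level had a lowest, median and highest value of 23.9, 27.7 and 36.5 CPM in STZ-cKOt, 32.2, 36.3 and 47.7 CPM in STZ-control, 17.1, 18.0 and 20.9 CPM in PBS-cKOt and 14.2, 18.4 and 25.9 CPM in PBS-control. The sums of STZ and PBS kidneys did not overlap within either genotype, and those of the STZ groups overlapped each other. Promoters of this role are shown for Cdk1 and Cdc20, both among its genes with the smallest adjusted p, since these genes moved together.

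Capitals mark the cell cycle genes homology region (CHR, searched as TTTGAA, with the letters TTCGAA as a second form) and the CCAAT box on both strands, and the E2F letters given above. Both windows are on the minus strand, for Cdk1 at chr10:69352863-69353162 and for Cdc20 at chr4:118437294-118437593 (RefSeq, GRCm38.p6).
Cdk1: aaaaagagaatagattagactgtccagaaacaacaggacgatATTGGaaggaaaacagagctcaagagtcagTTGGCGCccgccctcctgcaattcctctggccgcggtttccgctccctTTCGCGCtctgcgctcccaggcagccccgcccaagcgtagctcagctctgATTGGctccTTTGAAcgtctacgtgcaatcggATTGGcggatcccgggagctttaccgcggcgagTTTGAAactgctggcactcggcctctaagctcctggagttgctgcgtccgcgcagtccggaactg
Cdc20: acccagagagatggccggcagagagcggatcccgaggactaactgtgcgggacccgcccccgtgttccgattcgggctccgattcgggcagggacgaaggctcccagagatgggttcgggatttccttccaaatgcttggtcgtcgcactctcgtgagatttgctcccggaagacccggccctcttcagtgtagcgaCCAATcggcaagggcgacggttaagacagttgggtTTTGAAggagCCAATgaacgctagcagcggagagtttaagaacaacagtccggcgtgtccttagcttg

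In Cdk1 the CHR matches begin 71 and 15 bases before the RefSeq start, with CCAAT boxes 208, 80 and 48 bases before it. In Cdc20 the CHR match begins 18 bases before the RefSeq start, with CCAAT boxes 53 and 8 bases before it. Over the G2/M and spindle genes together, 15 of 20 promoters (75.0%) held a CHR match, against 19.2% of all windows, and 17 of 20 (85.0%) held a CCAAT box, against 37.4%. The 20 windows belong to 19 genes, since a pair of overlapping Prc1 windows shares its letters; by gene, 14 of 19 held a CHR match and 16 of 19 a CCAAT box. The E-box CACGTG, to which CLOCK and BMAL1 can bind, stood in 0 of these 20, in 2 of the 40 windows of all 48 genes and in 7.15% of all windows. Those 2 windows belong to Tyms and to Cdkn2c, while Ccnd1 and Wee1 had no window to search.

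Cdk1 (ENSMUSG00000019942, chromosome 10, 69335146 to 69352938), the kinase that drives entry into mitosis, had a lowest, median and highest level of 1.81, 2.98 and 4.29 CPM in STZ-cKOt, 2.61, 3.88 and 4.88 CPM in STZ-control, 1.24, 1.42 and 2.52 CPM in PBS-cKOt and 1.00, 1.63 and 2.24 CPM in PBS-control. STZ and PBS kidneys were apart in control mice and overlapped in cKOt mice. Cdk1 rose 1.83-fold in STZ-cKOt against PBS-cKOt (log2 0.87 ± 0.17, adjusted p = 0.000676) and 2.30-fold in STZ-control against PBS-control (1.20 ± 0.17, adjusted p = 6.79e-06). For Ccna2, which encodes cyclin A2, the 3 levels were 4.11, 4.91 and 5.70 CPM in STZ-cKOt, 5.04, 5.97 and 8.02 CPM in STZ-control, 2.65, 3.17 and 3.81 CPM in PBS-cKOt and 2.27, 3.22 and 4.72 CPM in PBS-control. Every STZ library lay above every PBS library of its genotype. The rise of Ccna2 was 1.52-fold in cKOt mice (adjusted p = 0.000365) and 1.86-fold in control mice (adjusted p = 7.05e-07). Ccna2 was also 1.28-fold lower in STZ-cKOt than in STZ-control (adjusted p = 0.0171). Cdc20, an activator of the anaphase-promoting complex, had 1.51, 2.42 and 4.10 CPM in STZ-cKOt, 3.08, 3.49 and 5.15 CPM in STZ-control, 1.11, 1.47 and 1.92 CPM in PBS-cKOt and 0.587, 1.59 and 2.51 CPM in PBS-control. In 8 of 9 STZ-cKOt libraries it lay below all STZ-control libraries. It rose 1.60-fold in STZ-cKOt against PBS-cKOt (adjusted p = 0.0178) and 2.35-fold in STZ-control against PBS-control (adjusted p = 2.08e-05), and was 1.53-fold lower in STZ-cKOt than in STZ-control (adjusted p = 0.0132).

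The other genes of G2 and mitotic control followed the STZ comparison of control mice with log2 fold changes between 0.59, for the Polo-like kinase gene Plk1, and 1.23, for the ubiquitin-conjugating enzyme gene Ube2c. In that comparison the cyclin B genes Ccnb1 and Ccnb2 rose by 0.99 ± 0.21 and 0.98 ± 0.18, and the aurora kinase genes Aurka and Aurkb by 1.05 ± 0.18 and 1.08 ± 0.21. The checkpoint kinase genes Bub1 and Bub1b rose by 1.15 ± 0.25 and 0.67 ± 0.17, and the kinase gene Melk by 1.16 ± 0.29. The chromosomal passenger genes Birc5 and Cdca8 rose by 0.86 ± 0.17 and 0.86 ± 0.15, and Foxm1, the transcription factor of G2/M genes, by 0.74 ± 0.16. In STZ-cKOt against PBS-cKOt, Bub1 had the largest log2 fold change of the 48 genes, 1.44 ± 0.26 (adjusted p = 0.000234). It averaged 0.879 ± 0.206 CPM in STZ-cKOt and 0.315 ± 0.123 CPM in PBS-cKOt (SD, n = 9 each), with no overlap. Melk followed at 1.18 ± 0.29, Aurkb at 0.80 ± 0.21, Ube2c at 0.77 ± 0.25, Bub1b at 0.72 ± 0.17, Birc5 at 0.65 ± 0.18, Aurka at 0.64 ± 0.18, Ccnb2 at 0.64 ± 0.19, Foxm1 at 0.55 ± 0.16 and Plk1 at 0.37 ± 0.13. Among these, Ube2c, Plk1 and Foxm1 lost the call under at least 1 other setting. Ccnb1 (0.61 ± 0.23, adjusted p = 0.0776) and Cdca8 (0.40 ± 0.15, adjusted p = 0.0704) were the G2/M genes not called there.

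Between the genotypes in STZ mice, 6 of the 15 G2/M genes were lower in STZ-cKOt and 0 higher. All 15 log2 fold changes were negative (median −0.36). Of all genes tested, 10.1% were called lower and 9.52% higher there. Ccnb1 had a lowest, median and highest level of 0.604, 1.03 and 1.48 CPM in STZ-cKOt, against 0.992, 1.76 and 2.31 CPM in STZ-control, with overlap (log2 −0.74 ± 0.21 SE, adjusted p = 0.00832). Ube2c fell by 0.73 ± 0.22 (adjusted p = 0.0161), Ccnb2 by 0.56 ± 0.17 (adjusted p = 0.0190) and Birc5 by 0.55 ± 0.16 (adjusted p = 0.0137), beside Cdc20 and Ccna2 above. At an unadjusted p under 0.05, 9 of the 15 were lower and 0 higher, where 16.1% of all genes were lower and 15.2% higher, and DESeq2 and limma voom each called 6 lower and 0 higher. In PBS mice, 0 of the 15 were called in either direction by edgeR, DESeq2 or limma voom, and 0 had an unadjusted p under 0.05, where 16.8% of all genes were higher and 18.4% lower. That the genotype difference of these genes is larger in STZ mice was not shown, since the interaction called none of the 15.

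**Figure D3:**
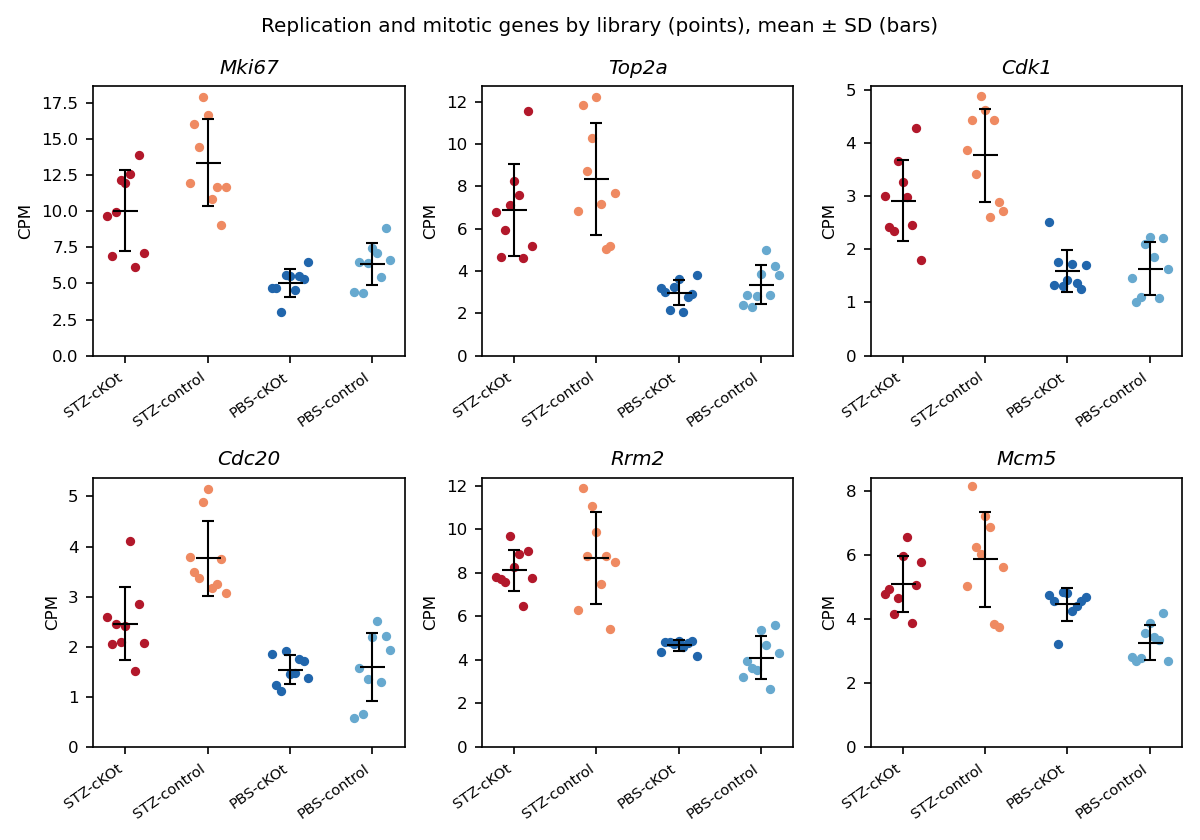
CPM (vertical axis, from 0) of 6 genes in each library (points) of the 4 groups (horizontal axis), with mean and SD as bars. STZ libraries of Mki67, Top2a, Cdk1 and Cdc20 lie mostly above PBS libraries, and Cdc20 lies lower in STZ-cKOt than in STZ-control; Mcm5 is lowest in PBS-control.

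Of the 9 genes of the spindle, the mitotic chromosome and cytokinesis, 7 were higher after STZ in cKOt mice (median log2 0.84). In control mice 7 were higher (median 1.07). Of all genes tested, 6.00% were called higher for STZ in cKOt mice and 6.34% in control mice. The promoters of Top2a and Mki67 are shown as those of a chromosome enzyme and of the usual marker of dividing cells, with capitals as for Cdk1. Both are on the minus strand (RefSeq, GRCm38.p6), at chr11:99024140-99024439 and chr7:135716330-135716629.
Top2a: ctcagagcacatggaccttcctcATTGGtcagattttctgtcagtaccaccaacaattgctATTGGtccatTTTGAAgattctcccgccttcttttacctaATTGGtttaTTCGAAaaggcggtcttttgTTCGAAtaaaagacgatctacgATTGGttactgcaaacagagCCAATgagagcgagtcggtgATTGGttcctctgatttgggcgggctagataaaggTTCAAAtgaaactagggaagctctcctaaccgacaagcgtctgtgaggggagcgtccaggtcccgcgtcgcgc
Mki67: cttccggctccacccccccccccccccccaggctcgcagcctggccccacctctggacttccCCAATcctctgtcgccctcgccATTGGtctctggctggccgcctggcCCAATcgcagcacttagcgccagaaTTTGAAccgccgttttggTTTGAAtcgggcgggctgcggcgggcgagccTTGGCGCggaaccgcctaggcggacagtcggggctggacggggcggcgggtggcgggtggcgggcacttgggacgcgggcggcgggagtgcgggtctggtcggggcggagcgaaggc

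The Top2a window holds 4 CHR matches and 6 CCAAT boxes, and that of Mki67 holds 2 CHR matches, 3 CCAAT boxes and 1 E2F match.

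Top2a (ENSMUSG00000020914, chromosome 11, 98992943 to 99024189), which encodes the topoisomerase that disentangles mitotic chromosomes, had 4.63, 6.81 and 11.5 CPM as its lowest, median and highest level in STZ-cKOt and 5.04, 7.71 and 12.2 CPM in STZ-control. In PBS-cKOt it had 2.08, 3.00 and 3.83 CPM and in PBS-control 2.30, 2.85 and 5.01 CPM. No STZ library overlapped the PBS libraries of its genotype. Top2a rose by log2 1.20 ± 0.18 in STZ-cKOt against PBS-cKOt (adjusted p = 1.64e-05) and by 1.32 ± 0.18 in STZ-control against PBS-control (adjusted p = 3.17e-06), the largest change of the 48 genes in that comparison. For Tpx2, a spindle assembly factor gene, the 3 levels were 1.72, 2.11 and 3.65 CPM in STZ-cKOt, 1.53, 2.90 and 3.87 CPM in STZ-control, 0.909, 1.18 and 1.57 CPM in PBS-cKOt and 0.763, 1.10 and 1.75 CPM in PBS-control. STZ and PBS kidneys were apart in cKOt mice and overlapped slightly in control mice. Tpx2 rose 1.93-fold in cKOt mice (adjusted p = 0.000271) and 2.46-fold in control mice (adjusted p = 2.40e-06). The centromere protein gene Cenpf had 1.22, 2.21 and 3.00 CPM in STZ-cKOt, 2.61, 3.17 and 3.97 CPM in STZ-control, 0.586, 1.21 and 1.52 CPM in PBS-cKOt and 0.528, 1.34 and 1.74 CPM in PBS-control. It lay below all STZ-control libraries in 8 of 9 STZ-cKOt libraries. Cenpf rose by log2 0.82 ± 0.18 in STZ-cKOt against PBS-cKOt and by 1.28 ± 0.18 in STZ-control against PBS-control, and was lower in STZ-cKOt than in STZ-control (−0.57 ± 0.17, adjusted p = 0.0122).

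Mki67, which encodes the Ki-67 antigen, averaged 10.0 ± 2.81 CPM in STZ-cKOt, 13.4 ± 3.03 CPM in STZ-control, 5.05 ± 0.976 CPM in PBS-cKOt and 6.35 ± 1.46 CPM in PBS-control (SD, n = 9 each). It rose 1.98-fold in STZ-cKOt against PBS-cKOt (adjusted p = 3.44e-05) and 2.10-fold in STZ-control against PBS-control (adjusted p = 7.22e-06). It was 1.33-fold lower in STZ-cKOt than in STZ-control (adjusted p = 0.0467), a call lost with no filter, in the fit to those 2 groups alone and without the library labelled STZ-control 2. The motor gene Kif11 rose by 0.84 ± 0.18 in cKOt mice and by 0.68 ± 0.17 in control mice, and the cytokinesis gene Prc1 by 0.84 ± 0.18 and 1.20 ± 0.18. The motor gene Kif20a rose in control mice (1.06 ± 0.19, adjusted p = 0.000169) and was not called in cKOt mice (0.50 ± 0.19, adjusted p = 0.0817). Nusap1, a spindle-associated protein gene, rose in cKOt mice (0.41 ± 0.12, adjusted p = 0.0220) and was not called in control mice (0.28 ± 0.12, adjusted p = 0.116). It was also lower in PBS-cKOt than in PBS-control, at 4.70 ± 0.593 CPM, against 6.21 ± 1.17 CPM (adjusted p = 0.0123). Cenpe, the centromere motor gene, ranged from 3.05 to 8.27 CPM over all libraries and was called nowhere.

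Within a group, libraries differed in how many of the 24 G2/M and spindle genes they held above the group median. Of the 24 genes, 21 stood above their group's median in STZ-cKOt 8 and 2 in each of STZ-cKOt 7 and STZ-cKOt 9. In STZ-control the counts ran from 2 of 24 in STZ-control 8 and STZ-control 9 to 21 of 24 in STZ-control 5, and in PBS-control from 1 in PBS-control 1 to 22 in PBS-control 6. In PBS-cKOt they ran from 6 in PBS-cKOt 6 to 16 in PBS-cKOt 9. The summed level of the 24 had a lowest, median and highest value of 55.8, 68.8 and 93.2 CPM in STZ-cKOt, 68.7, 81.1 and 113 CPM in STZ-control, 38.7, 44.2 and 50.4 CPM in PBS-cKOt and 37.6, 46.7 and 59.9 CPM in PBS-control. The 24 genes were measured in the same libraries, so their values within a library are not independent.

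Of the 4 genes that restrain the cycle, Wee1 and Cdkn2c were called lower in cKOt kidneys of both treatments, Cdkn1c was called higher for STZ in cKOt mice, and Cdkn1b was not called. Wee1 (ENSMUSG00000031016, chromosome 7, 110122046 to 110143286), the kinase that holds Cdk1 inactive, had 12.1, 14.2 and 17.5 CPM as its lowest, median and highest level in STZ-cKOt, against 18.4, 25.6 and 30.6 CPM in STZ-control. It had 9.67, 13.0 and 16.4 CPM in PBS-cKOt, against 20.1, 26.4 and 30.7 CPM in PBS-control. All cKOt libraries lay below all control libraries of the same treatment. Wee1 was 1.74-fold lower in STZ-cKOt than in STZ-control (log2 −0.80 ± 0.10, adjusted p = 3.19e-08) and 1.97-fold lower in PBS-cKOt than in PBS-control (−0.98 ± 0.10, adjusted p = 2.96e-10). Its STZ log2 fold changes were 0.17 ± 0.10 in cKOt mice and −0.01 ± 0.09 in control mice, with no call. Cdkn2c, which encodes the Cdk4 and Cdk6 inhibitor p18, had 8.00, 9.26 and 10.8 CPM in STZ-cKOt, against 11.8, 13.5 and 18.0 CPM in STZ-control, and 7.61, 9.14 and 10.6 CPM in PBS-cKOt, against 11.0, 15.2 and 18.4 CPM in PBS-control. Here too no cKOt library reached the controls of its treatment. Cdkn2c was 1.48-fold lower in STZ-cKOt (adjusted p = 8.40e-06) and 1.60-fold lower in PBS-cKOt (adjusted p = 2.41e-07). The p57 gene Cdkn1c rose in STZ-cKOt to 11.9 ± 1.92 CPM, against 9.03 ± 1.95 CPM in PBS-cKOt (SD, n = 9 each; log2 0.40 ± 0.12, adjusted p = 0.0211), and was not called in control mice (0.14 ± 0.12). Cdkn1b averaged 50.4 ± 5.72 CPM in STZ-cKOt, 50.1 ± 5.97 CPM in STZ-control, 47.4 ± 4.49 CPM in PBS-cKOt and 49.6 ± 2.78 CPM in PBS-control and was called nowhere.

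**Figure D4:**
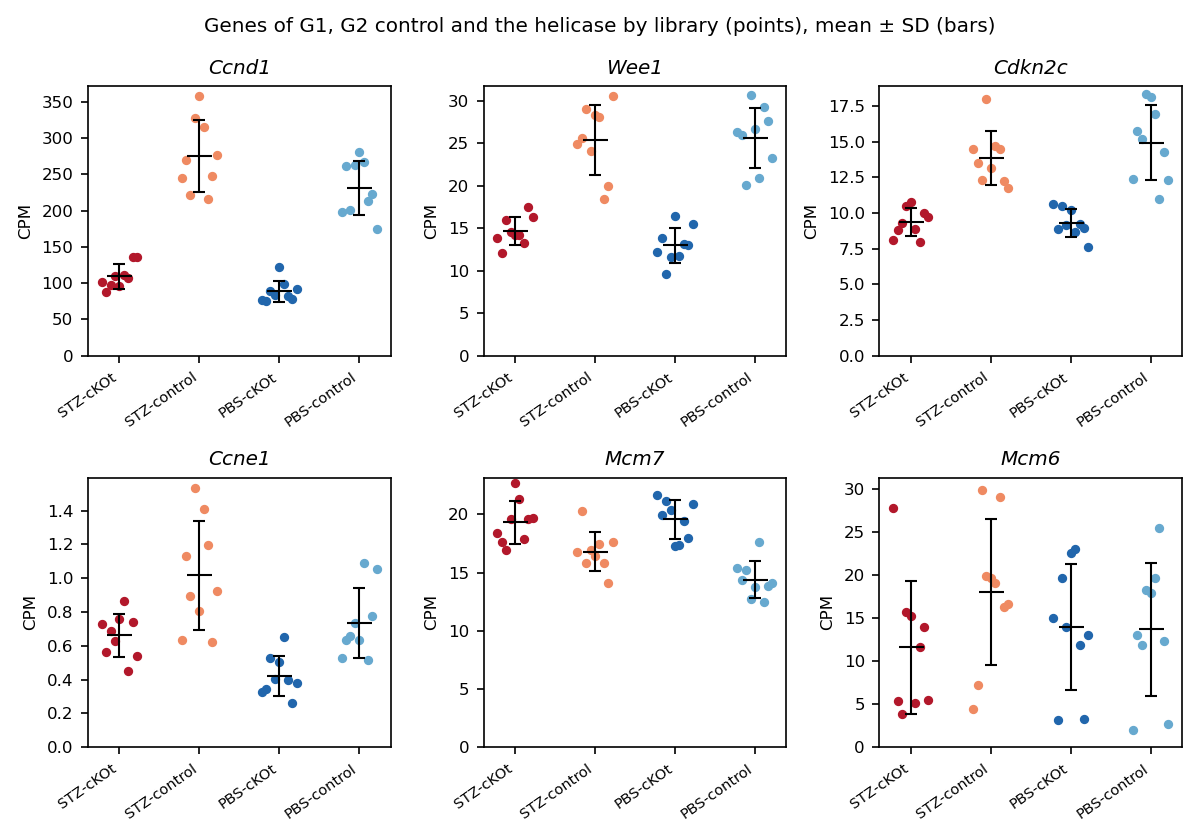
CPM (vertical axis, from 0) of 6 genes in each library (points) of the 4 groups (horizontal axis), with mean and SD as bars. Ccnd1, Wee1 and Cdkn2c are lower in both cKOt groups than in both control groups with no overlap within a treatment; Mcm6 spreads from 1.94 to 29.9 CPM with all 4 groups overlapping.

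The library labelled STZ-control 2, whose Arntl and Ciart levels lay with the cKOt libraries, lay with the controls for Ccnd1, Wee1, Cdkn2c and Ccne1 and was high for several replication genes. Its Ccnd1 level was 269.6 CPM, where STZ-cKOt had at most 137 CPM. Its Wee1 level of 25.6 CPM, Cdkn2c level of 13.5 CPM and Ccne1 level of 1.13 CPM were also within the range of the other 8 STZ-control libraries and above the range of STZ-cKOt. Its Mcm7 level of 20.3 CPM was above the other STZ-control libraries, which had 14.1 to 17.6 CPM, and within the 17.0 to 22.7 CPM of STZ-cKOt. That library was also the highest of STZ-control for Mcm2, Mcm5, Cdc6 and Rrm2. Its Mcm5 level of 8.15 CPM and Rrm2 level of 11.9 CPM lay above STZ-cKOt, which had at most 6.56 and 9.67 CPM. Without that library, STZ-control against PBS-control had 32 genes called and STZ-cKOt against PBS-cKOt 25, while the genotype comparisons had 13 in STZ mice and 12 in PBS mice. Without the 4 libraries apart on the second component these counts, in the same order, were 35, 26, 17 and 11.

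The 2 genotypes share no library, so their STZ effects can be set side by side. Of the 48 genes, 22 were higher after STZ in both genotypes, 13 of them of the G2/M role and 6 of the spindle role, while 3 (Ccne1, Nusap1 and Cdkn1c) were called in cKOt mice and not in control mice and 12 the other way round. Over all genes tested, 2.39% were higher in both, 3.62% were called higher in cKOt mice and not in control mice, and 3.96% the other way round. The sign was the same for 41 of 48 (60.2% of all genes), and the effect was smaller in size in cKOt mice for 35 of 48 (52.8% of all genes), with all 10 licensing and helicase genes among them. The interaction called 1 of the 48 genes, beside 7 of 15637 genes in all (0.0448%). That gene was Mcm2, with an interaction of −0.41 ± 0.08 (adjusted p = 0.0388). Its call was lost with no filter, with the replicate number as a block, without the library labelled STZ-control 2 and without the 4 libraries, at interactions between −0.41 and −0.39, where the adjusted p over all 8 other settings ran from 0.00618 to 0.118. Mcm5, at −0.66 ± 0.18 (adjusted p = 0.220), was called without the 4 libraries (−0.83 ± 0.15) and by limma voom (−0.77 ± 0.16). At an unadjusted p under 0.05 the interaction was negative for 7 of the 48 (Mcm2, Mcm5, Mcm7, Cdt1, Kif20a, Cdca8 and Cdc20) and positive for 0, where it was negative for 6.36% and positive for 6.08% of all genes. It was negative for all 10 licensing and helicase genes (median −0.37), for 12 of 15 G2/M genes (median −0.29) and for 34 of the 48, beside 51.5% of all genes. The 48 genes were measured in the same libraries, so such counts of genes by sign or size are not counts of independent values. The genotype effects likewise share no library between treatments. Called in both treatments were Ccnd1, Ccne1, Cdkn2c and Wee1 as lower and Mcm7 and Pcna as higher in cKOt kidneys, with no gene called in opposite directions.

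**Figure D5:**
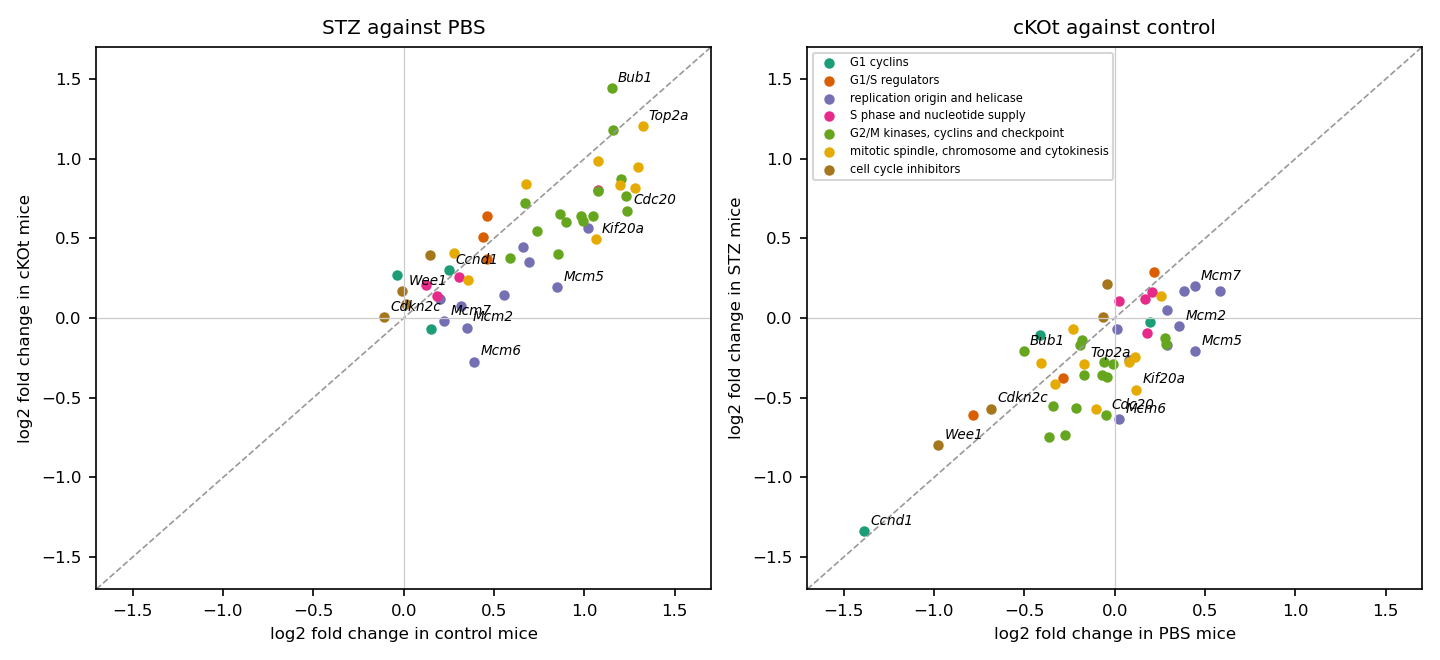
log2 fold changes of the 48 genes, coloured by role. Left, the STZ effect in cKOt mice (vertical axis) against that in control mice (horizontal axis); right, the cKOt effect in STZ mice (vertical) against that in PBS mice (horizontal); the dashed line marks equal effects. On the left 35 of 48 genes have the smaller effect in cKOt mice, beside 52.8% of all genes tested, and the 48 values are not independent. On the right Ccnd1, Wee1 and Cdkn2c lie near the line at the lower left.

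Other genes of the same pathways were read from lists of 87 named genes, of which 84 were tested. These lists too were chosen with earlier results of these data known, so their counts are not independent support. Over all genes tested, 6.00% were called higher and 5.63% lower for STZ in cKOt mice, and 6.34% and 5.93% in control mice. The genotype shares were 9.52% higher and 10.1% lower in STZ mice, and 10.9% and 12.5% in PBS mice. Of 31 tested further mitotic genes, 20 were higher and 0 lower in STZ-cKOt against PBS-cKOt (median log2 0.75) and 25 higher and 0 lower in STZ-control against PBS-control (0.90). Examples are Kif23, a cytokinesis motor gene (0.86 ± 0.15 in cKOt mice and 1.22 ± 0.16 in control mice), Nuf2, of the kinetochore (1.02 ± 0.23 and 1.44 ± 0.23), Ckap2 (0.98 ± 0.19 and 1.38 ± 0.19) and Dlgap5 (0.88 ± 0.20 and 1.61 ± 0.20), both spindle protein genes. For genotype, 1 was higher and 6 lower in STZ-cKOt, and 2 higher and 0 lower in PBS-cKOt. Of 26 further replication genes, 4 were higher and 1 lower after STZ in cKOt mice and 11 higher and 1 lower in control mice, such as the polymerase gene Pole (0.58 ± 0.12 and 0.80 ± 0.12), the S-phase genes Uhrf1 (0.86 ± 0.16 and 0.98 ± 0.16) and Clspn (0.86 ± 0.23 and 1.52 ± 0.24). For genotype, 1 was higher and 2 lower in STZ-cKOt, and 5 higher and 2 lower in PBS-cKOt. Mcm10, a replication initiation gene, was among the lower ones in both, at 2.91 CPM in STZ-cKOt and 7.95 CPM in STZ-control (log2 −1.44 ± 0.12, adjusted p = 1.32e-12) and at 2.97 CPM in PBS-cKOt and 8.09 CPM in PBS-control (−1.45 ± 0.12, adjusted p = 1.16e-12).

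Of 16 genes of G1 kinases, E2F factors and pocket proteins, 4 were higher and 1 lower after STZ in cKOt mice and 0 higher and 1 lower in control mice. For genotype 2 were higher and 0 lower in each treatment. Over all genes tested, STZ calls made up 11.6% in cKOt mice and 12.3% in control mice. Genotype calls made up 19.6% in STZ mice and 23.4% in PBS mice. E2f5 was the gene lower after STZ, by 0.32 ± 0.06 in cKOt mice and 0.18 ± 0.06 in control mice, and Rb1 (0.25 ± 0.07) and E2f7 (1.32 ± 0.32) were among those higher in cKOt mice. Cdk6, a kinase of G1, was higher in STZ-cKOt than in STZ-control (0.31 ± 0.08) and in PBS-cKOt than in PBS-control (0.23 ± 0.08). Of 11 further inhibitors and arrest genes, 3 were higher after STZ in cKOt mice and 5 in control mice, and 3 were higher in STZ-cKOt than in STZ-control and 6 in PBS-cKOt than in PBS-control. In those 4 comparisons 0 of the 11 were called lower, where 6.00% to 10.9% of all genes were called higher and 5.63% to 12.5% lower. Cdkn1a, which encodes the kinase inhibitor p21, had a lowest, median and highest level of 70.5, 84.1 and 111 CPM in STZ-cKOt, 29.9, 44.2 and 52.2 CPM in STZ-control, 17.0, 22.2 and 28.7 CPM in PBS-cKOt and 2.85, 4.00 and 5.55 CPM in PBS-control. No 2 of these 4 ranges overlapped. Its STZ effect was smaller in cKOt mice on the log2 scale (interaction −1.37 ± 0.17, adjusted p = 1.93e-05), 1 of the 7 interaction calls over all genes. The p53 target genes Ccng1, higher after STZ in both genotypes (1.08 ± 0.09 in cKOt mice and 0.78 ± 0.09 in control mice), and Cdkn1a were higher together with the mitotic genes in STZ kidneys.

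Some marker lists of other cells and of injury moved in the same comparisons, and others did not. For STZ, 6.00% of all genes tested were called higher and 5.63% lower in cKOt mice. The shares in control mice were 6.34% and 5.93%. For genotype, 9.52% were called higher and 10.1% lower in STZ mice, and 10.9% and 12.5% in PBS mice. Of 9 markers of injured tubule, 5 were higher in STZ-cKOt than in PBS-cKOt, with sums of 1030 to 1593 CPM against 753 to 1297 CPM. In control mice 6 were higher, with sums of 996 to 1480 CPM in STZ-control and 723 to 970 CPM in PBS-control. Between genotypes, 0 of the 9 were higher and 1 lower in STZ-cKOt, and 2 were higher and 2 lower in PBS-cKOt. Of 8 macrophage and dendritic cell markers, 3 were higher in STZ-control than in PBS-control (sums of 228 to 384 CPM and 211 to 306 CPM), and 6 were lower in STZ-cKOt than in STZ-control (193 to 230 CPM and 228 to 384 CPM). In PBS-cKOt against PBS-control 3 of the 8 were lower (172 to 228 CPM and 211 to 306 CPM). In STZ-cKOt against PBS-cKOt 1 of the 8, Csf1r, was lower and 0 were higher, with a median log2 fold change of 0.14. Of 7 fibroblast and mural cell markers, 4 were higher in STZ-cKOt than in PBS-cKOt (217 to 287 CPM and 151 to 221 CPM). In PBS-cKOt 5 were lower than in PBS-control (151 to 221 CPM and 169 to 288 CPM). Acta2 and Col1a2 were higher in STZ-control than in PBS-control, and Acta2 was lower in STZ-cKOt than in STZ-control. Of 12 proximal tubule markers, 5 were lower in STZ-cKOt than in PBS-cKOt (22829 to 35040.5 CPM and 34144 to 58005 CPM) and 3 were lower in STZ-control than in PBS-control. Set against controls of the same treatment, 1 of the 12 was higher and 5 lower in STZ-cKOt, and 0 were higher and 3 lower in PBS-cKOt. Lymphocyte markers, with 0 of 8 called for STZ in either genotype, summed to 11.0 to 28.5 CPM over all libraries. Set against controls of the same treatment, 1 of the 8 was lower in STZ-cKOt and 2 were lower in PBS-cKOt, with 0 higher. Endothelial markers had 2 of 7 higher in STZ-cKOt than in PBS-cKOt, erythroid markers 0 of 4 called in all 4 comparisons, and adipocyte markers 5 of 6 lower in STZ-control than in PBS-control (40.8 to 69.7 CPM and 44.7 to 320 CPM). The endothelial marker Cdh5 and the adipocyte marker Ucp1 were lower in PBS-cKOt than in PBS-control. The adipocyte marker Cidea was lower in STZ-cKOt than in PBS-cKOt. No tested marker of these lists was at 0 in all libraries. The part of these cells in the changes of the 48 genes was not tested.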

How the data were processed

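The values are raw read counts per gene, deposited by the authors as 1 file per sample for 36 kidneys. Poly(A) RNA was prepared from 500 ng of total RNA per sample with a stranded kit, per the labels' protocols. Per the submitters' processing notes, cutadapt 1.8, STAR 2.5.3a and HTSeq 0.9.1 were used with the GRCm38 build; the counting options, strand setting and annotation release are not given in the sources used here. A further 5 entries per file that name no gene were left out of library sizes and tests: reads aligned to several places (30.9% to 42.8%), in no gene (3.64% to 6.38%) and ambiguous (0.582% to 0.738%) were the ones above 0. Symbols came from a GENCODE M21 table (53620 of 53715 identifiers). Of the 48 genes, 12 overlap an expressed gene on the opposite strand, Ccnd1, Mcm7 and Cdc20 among them. With strand use unknown, the counts of these 12 may be affected.

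Tests used edgeR 4.0.16 in R 4.3.3: filterByExpr (15637 genes kept), TMM scaling and the quasi-likelihood test on 4 group means (32 residual degrees of freedom), with Benjamini-Hochberg adjustment over all genes at 0.05. Levels are CPM on TMM-scaled library sizes, and the SE of a log2 fold change was derived from its F statistic. Scripts were tested on simulated data. The members, lists and tests were chosen with earlier results of these data known. Named with values were genes called in at least 1 comparison and the 3 with the highest mean CPM; levels by library were given for up to 3 genes per role with the smallest adjusted p, and of each pathway list up to 4 genes plus Cdkn1a. Other genes, Mki67 and Mcm6 in the plots among them, were added after their values were seen. Alternatives were DESeq2 1.42.0 (test and size factors), limma 3.58.1 voom with quality weights, 2 other filters, a fit to the compared groups only and the replicate number as a block; 2 more, leaving out libraries, were chosen after seeing the data. Replicate numbers name different animals, and the labels give no pairing by number. The animals are separate samples per the labels, and the heat map uses a pseudocount of 0.1.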

Additional observations from a re-analysis of the deposited data

Results flagged for a closer look

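In each group the highest and lowest library of every gene was set against its neighbours by Dixon's criterion. Of 192 such group tests, 10 found a library far from the other 8 of its group, and chance alone gives about 5% of tests. PBS-cKOt 1, one of the 4 libraries apart on the second principal component, was the highest of its group for Pcna at 33.3 CPM (next 28.9 CPM), for Cdk1 at 2.52 CPM (next 1.76 CPM) and for Cdkn1c at 13.3 CPM (next 9.94 CPM). PBS-cKOt 3, also among those 4, was the lowest for Mcm5 at 3.22 CPM (next 4.24 CPM). STZ-cKOt 1 was the lowest for Ccnd3 at 59.1 CPM (next 74.4 CPM) and the highest for Mcm6 at 27.8 CPM (next 15.7 CPM). STZ-cKOt 8 was the highest for Melk at 1.11 CPM (next 0.768 CPM). STZ-control 9 was the highest for Cdkn1b at 63.8 CPM (next 53.6 CPM) and Cdkn1c at 15.3 CPM (next 11.3 CPM), and STZ-control 4 for Cdkn2c at 18.0 CPM (next 14.7 CPM). The STZ effect on Mcm2 was called as different between the genotypes, with an interaction of −0.41 (edgeR adjusted p = 0.0388), a call lost under 4 of 8 other settings.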

How the results depend on the processing

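Over the settings tried, no called fold change turned its direction. Of the genes called, 20 of 25 (STZ-cKOt against PBS-cKOt), 31 of 34 (STZ-control against PBS-control), 11 of 14 (STZ-cKOt against STZ-control) and 11 of 12 (PBS-cKOt against PBS-control) were called under every setting that tested them. Of the 2 genes called higher in STZ-cKOt than in STZ-control, Mcm7 and Pcna, 0 were called with no filter on low counts and 1 without the 4 libraries apart on the second component. The interaction called 0 of 48 genes with no filter and without the library labelled STZ-control 2, 2 by limma voom (Mcm2 and Mcm5), and 1 without the 4 libraries, which was Mcm5 and not Mcm2; the cause was not tested. With the replicate number as a block (24 residual degrees of freedom) the counts were 24, 34, 14 and 13 in the order above and 0 for the interaction. The labels give no pairing of animals by number. Same-numbered libraries correlated between −0.25 and 0.40 over 54 pairs (median 0.02, against 0.00 for other pairs), and 7 of 36 libraries correlated best with their own number. Whether same-numbered animals shared a litter or batch was not tested. Under the other scaling the counts were the same. Low counts limit Melk (2 to 35 reads per library), Bub1 and Ccne1 most.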

Other observations

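Mcm6, chosen here after its values were seen, spread widely inside all 4 groups. When each gene's log2 level was taken as the deviation from its group mean, the 15 genes whose deviations ranked most like or opposite to those of Mcm6 (Spearman's rho over 36 libraries, 15636 genes ranked) included 12 on chromosome 1, which holds Mcm6 itself and 5.95% of the genes ranked. Among them were Gm7889 (rho −0.80, chr1:93975353-93985816), D2hgdh (0.75, chr1:93824909-93852348), Serpinb8 (−0.73), Mlph (0.72) and Ngef (−0.72). Those not on chromosome 1 were Klrg2 (0.72, chromosome 6), Npy1r (0.66, chromosome 8) and Cldn11 (0.65, chromosome 3). The values share libraries and depth and are given as a description.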
